A study of Mus musculus with 32 samples.

Results

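The regions described here are the places where Bcl11b was found on chromatin in a pro-T-cell line and in a line of group 2 innate lymphoid cells (ILC2s). They are all the peaks of the authors' Bcl11b ChIP-seq lists, 17874 in Scid.adh.2c2 and 21677 in ILC2/b6. Together these are 39551 of the 215616 peaks in the 8 lists of the series. A peak was counted as shared when its interval overlapped a peak of the other line by at least 1 bp, and as restricted to its line otherwise. This gave 10165 Scid.adh.2c2-restricted peaks, 13968 ILC2/b6-restricted peaks and 7709 pairs of shared peaks, each peak having at most 1 counterpart.

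Bcl11b is a zinc finger transcription factor that thymic progenitors switch on as they commit to the T lineage, and that ILC2s keep and need for their identity. It binds together with Runx factors and GATA3 and recruits chromatin-modifying complexes, among them the NuRD complex. In T-cell precursors it is known to restrain natural killer (NK) cell and other innate genes, while in ILC2s it is known to sustain the receptor programme for alarmins and to hold back other innate fates.

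Both cell types were studied as mouse lines, 1 line each. Scid.adh.2c2, which resembles pro-T cells, was established from a thymic lymphoma of scid mice. ILC2/b6 cells were grown with the cytokines IL-2, IL-7 and IL-33, each at 10 ng/ml. Bcl11b was precipitated with a mixture of antibodies from cells fixed with DSG and then formaldehyde, with 2 libraries per line, and GATA3, Runx1 and Runx3 were precipitated in the same lines. For RNA-seq each line was transduced with a Bcl11b guide linked to CFP (sgBcl11b) or with a control guide linked to CFP (sgCont), with 2 libraries per group; the source of Cas9 and the share of edited cells are not given in the sources used here.

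RNA levels are the authors' RPKM, reads scaled to transcript length and library size, and the steps of the low values give 34.7 to 43.7 M reads per library. The tables were normalized apart for each line, so levels set across lines below are descriptions. The line labels matched their markers in part: in the control libraries Tcf7 averaged 389 RPKM in Scid.adh.2c2 and 0.152 RPKM in ILC2/b6, whereas Il1rl1 averaged 0.102 RPKM in Scid.adh.2c2 and 322 RPKM in ILC2/b6. Of the pro-T markers, Rag2 (0.709 RPKM) and Cd8a (0.0095 RPKM) were near 0 in Scid.adh.2c2. The 10 ILC2 markers summed to 97.55 and 94.5 RPKM in Scid.adh.2c2 controls and 8477 and 8661 RPKM in ILC2/b6 controls. Of them, Il17rb (29.4 and 14.7 RPKM) and Rora (6.60 and 3.53 RPKM) averaged higher in Scid.adh.2c2 than in ILC2/b6. The 8 NK markers summed to 4745 and 4920 RPKM in the ILC2/b6 control libraries. Only 2 of these 8 reached 1 RPKM in at least 2 libraries of that line, and Ncr1 averaged 0.0675 RPKM in its controls. The Bcl11b transcript did not pass the test in either line (47.1 and 46.8 RPKM with sgBcl11b against 47.0 and 49.5 RPKM with sgCont in Scid.adh.2c2, and 7.04 and 7.24 RPKM against 6.85 and 6.33 RPKM in ILC2/b6), so the mRNA does not show how far the guide acted on the protein. With median-centred values it passed in Scid.adh.2c2 (log2 fold change -0.17, limma adjusted p = 0.00856).

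The promoters of 3 genes are printed because they show the 3 classes of Bcl11b binding at genes that mark these cells. Rag1, which encodes the recombinase of antigen receptor genes, had a promoter peak in Scid.adh.2c2 without a counterpart in ILC2/b6. Areg, an EGF-family growth factor of ILC2s, had one in ILC2/b6 without a counterpart, and Il13, a type 2 cytokine, had a shared promoter peak. The sequences are the 250 bases before the transcription start site (TSS) from RefSeq on GRCm38.p6, 5′ to 3′ on the gene's strand, at chr2:101649533-101649782 (minus strand) for Rag1, chr5:91139349-91139598 (plus strand) for Areg and chr11:53634703-53634952 (minus strand) for Il13. Capitals mark the Runx letters TGTGGT (or ACCACA on the other strand) and the GATA letters AGATAA (or TTATCT).
Rag1: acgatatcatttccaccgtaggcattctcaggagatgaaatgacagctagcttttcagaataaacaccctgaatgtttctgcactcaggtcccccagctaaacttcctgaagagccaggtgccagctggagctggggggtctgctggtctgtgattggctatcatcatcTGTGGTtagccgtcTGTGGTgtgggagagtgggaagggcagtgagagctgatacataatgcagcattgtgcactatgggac
Areg: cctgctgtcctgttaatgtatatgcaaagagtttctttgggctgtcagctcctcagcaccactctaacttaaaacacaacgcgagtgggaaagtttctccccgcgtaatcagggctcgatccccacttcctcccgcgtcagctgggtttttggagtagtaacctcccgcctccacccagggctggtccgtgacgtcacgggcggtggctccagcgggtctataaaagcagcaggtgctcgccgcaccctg
Il13: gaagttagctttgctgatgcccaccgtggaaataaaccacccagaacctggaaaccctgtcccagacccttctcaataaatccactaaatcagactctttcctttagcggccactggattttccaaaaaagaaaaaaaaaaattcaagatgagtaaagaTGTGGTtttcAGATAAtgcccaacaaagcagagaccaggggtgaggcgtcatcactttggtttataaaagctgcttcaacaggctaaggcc
The Rag1 stretch held the Runx letters at 2 places, starting -81 and -67 bases from the TSS, and the Bcl11b peak there was centred at -52 bp with a score of 54.5. In the Il13 stretch the Runx letters began at -91 and the GATA letters at -81, beside shared peaks centred at -61 bp in Scid.adh.2c2 and -73 bp in ILC2/b6. The Areg stretch held neither motif and 15 CpG dinucleotides, against 3 in each of the others, and its ILC2/b6 peak was centred 39 bp after the TSS. Such matches are descriptions of the letters, not of bound sites.

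A minority of the peaks of either Bcl11b list was shared between the lines, and sharing was more frequent around gene starts and at high-scoring peaks than elsewhere. The shared peaks were 43.1% of the Scid.adh.2c2 list and 35.6% of the ILC2/b6 list. For the partner factors the same overlap gave 47.3% and 51.8% for GATA3, 50.7% and 26.4% for Runx1, and 60.4% and 27.6% for Runx3, in the Scid.adh.2c2 and the ILC2/b6 list. Shared peaks lay closely over each other, with a median offset of 34 bp between centres and 65.1% of centres within 50 bp. Of the 7709 pairs, 7580 had the same nearest gene and 7150 the same annotation class.

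The share of peaks with a counterpart depended on the threshold for overlap. With a reciprocal overlap of at least 50%, 39.2% of the Scid.adh.2c2 peaks and 32.4% of the ILC2/b6 peaks were shared, and with a gap of up to 500 bp also allowed, 49.2% and 40.1%. Restricted peaks were mostly far from the other line's binding. The nearest Bcl11b peak of the other line was a median of 18439 bp away from Scid.adh.2c2-restricted peaks and 23158.5 bp away from ILC2/b6-restricted peaks, and within 1 kb for 13.4% and 9.03% of them.

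By annotation class, 63.8% of promoter peaks in the Scid.adh.2c2 list and 74.6% of those in the ILC2/b6 list were shared, and 66.3% and 60.4% of the fewer peaks in 5′ UTRs. In introns the shares were 31.9% and 20.1%, and in intergenic regions 26.2% and 21.2%. Peak scores are the authors' own and were used only to rank peaks within a list. Peaks in the lowest decile of scores were shared in 20.5% of cases and those in the highest decile in 63.4% in the Scid.adh.2c2 list, and in 24.6% and 47.6% in the ILC2/b6 list. The same order held apart for promoter peaks (24.9% and 90.5% in Scid.adh.2c2, 61.1% and 82.8% in ILC2/b6) and for other peaks (19.0% and 48.4%, 16.3% and 37.3%). Across the shared pairs the 2 scores had a Spearman correlation of 0.48, a description over sites of the same libraries.

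**Figure D1:**
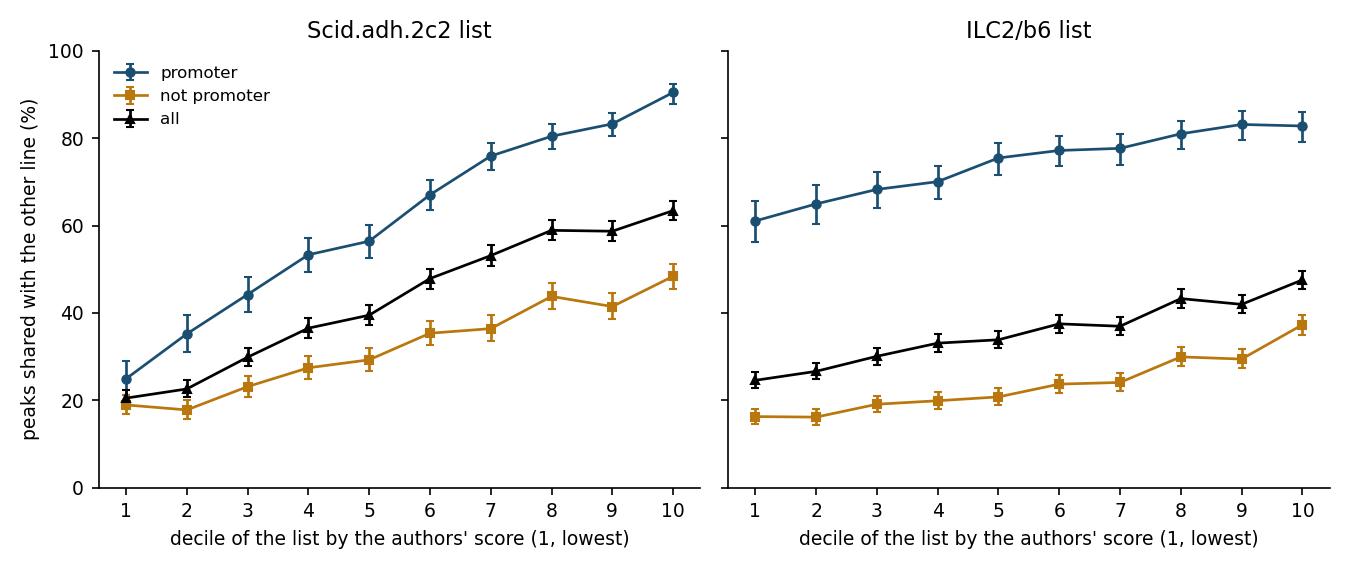
Percent of Bcl11b peaks with a counterpart in the other line (y axis) by decile of the authors' peak score within each list (x axis), for promoter and other peaks of Scid.adh.2c2 and of ILC2/b6; bars are 95% Wilson intervals. Promoter peaks lie above other peaks of the same list, and both climb with score, to 90.5% for promoter peaks in the highest Scid.adh.2c2 decile and 82.8% in the highest ILC2/b6 decile.

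Shared binding was promoter binding for the larger part, and ILC2/b6-restricted binding was the least so. Promoter peaks were 22.8% of Scid.adh.2c2-restricted peaks (2316; 95% Wilson interval 22.0 to 23.6%), 9.24% of ILC2/b6-restricted peaks (1291; 8.77 to 9.73%) and 53.1% of shared peaks in the Scid.adh.2c2 list (4090; 51.9 to 54.2%). The same shared sites were 49.1% promoter by their ILC2/b6 intervals. Introns held 34.3% of Scid.adh.2c2-restricted, 48.6% of ILC2/b6-restricted and 21.2% of shared peaks, and intergenic regions held 36.8%, 35.2% and 17.2%. Each list was made from 2 libraries together, so no test between lines was possible, and the intervals cover counting error only. The order of the 3 promoter shares was the same under every alternative run.

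Distances to the TSS of the nearest gene followed the same order. The median was 10354 bp for Scid.adh.2c2-restricted peaks (quartiles 650 and 38233 bp), 15822 bp for ILC2/b6-restricted peaks (3546.75 and 43212 bp) and 201 bp for shared peaks (65 and 7554 bp). Within 1 kb of a TSS lay 28.0% of Scid.adh.2c2-restricted, 16.4% of ILC2/b6-restricted and 64.6% of shared peaks. Once promoter peaks were set aside, the restricted classes were at like distances, with medians of 19659 bp in Scid.adh.2c2 and 19000 bp in ILC2/b6, against 8973 bp for shared peaks.

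**Figure D2:**
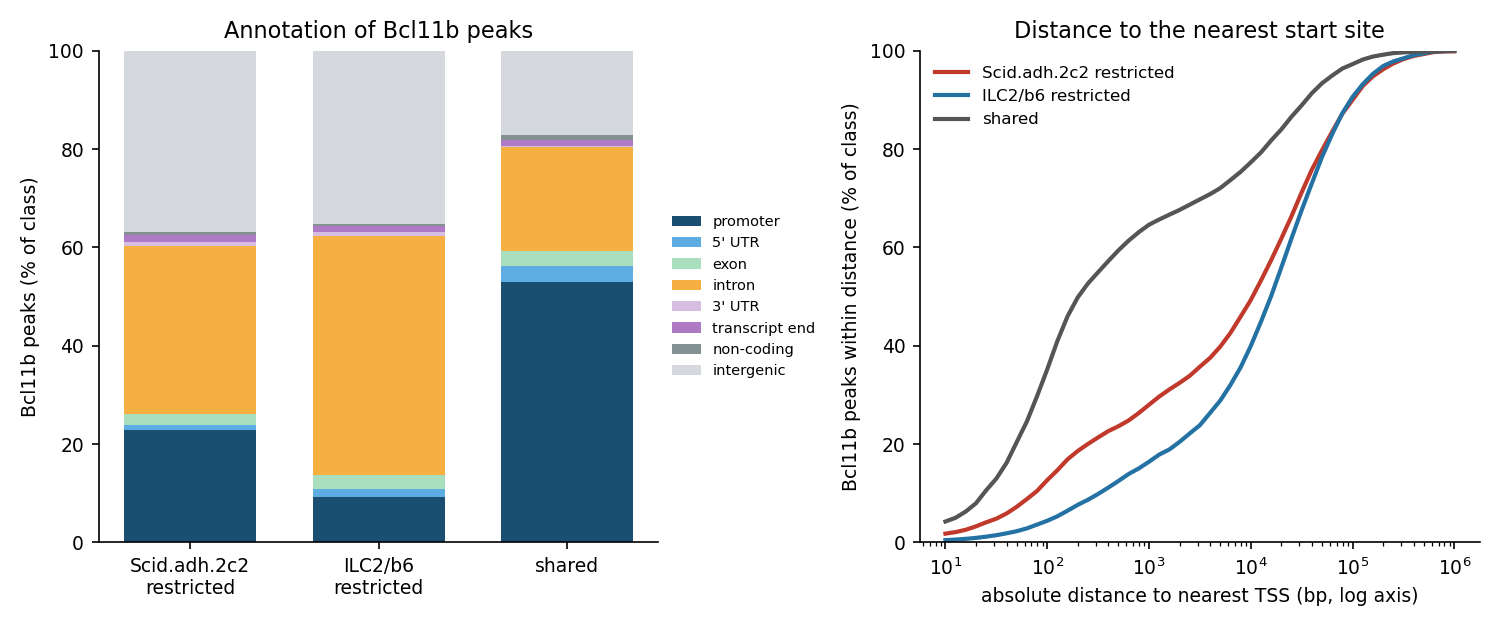
Left, percent of peaks in each annotation class, as stacked bars, for Scid.adh.2c2-restricted, ILC2/b6-restricted and shared Bcl11b peaks. Right, cumulative percent of peaks by absolute distance to the nearest TSS (bp, log axis). Promoters hold 22.8%, 9.24% and 53.1% of the 3 classes, and the curve of shared peaks is already at 64.6% by 1 kb.

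Promoters bound by Bcl11b were rich in CpG. The shared ones held the letters of ETS factors more often than all CpG-rich promoters together, bound ones included. For this the promoter peaks centred from 250 bp before to 50 bp after their annotated TSS on mm9 were used, at genes with a single RefSeq promoter window. The window (300 bp, the same span, GRCm38.p6) was matched by gene symbol. Whether its TSS is the one annotated to the peak was not checked. Of 7303 genes with a promoter peak 5735 matched a window by symbol, and 3330 had a single window and a peak centre in that span. The median window held 22 CpG at 989 Scid.adh.2c2-restricted promoters, 22 at 352 ILC2/b6-restricted promoters and 25 at 1850 shared promoters, against 7 over all 22862 single windows. The ETS letters CGGAAG (or CTTCCG) stood in 36.6% of Scid.adh.2c2-restricted, 30.1% of ILC2/b6-restricted and 50.2% of shared windows, against 17.1% of all windows and 35.1% of the 6004 windows with at least 20 CpG. Runx letters TGTGGT were in 11.4% of Scid.adh.2c2-restricted windows (95% Wilson interval 9.59 to 13.6%), 19.3% of ILC2/b6-restricted windows (15.5 to 23.8%) and 13.4% of shared windows, against 17.1% of all windows and 8.78% of CpG-rich ones. The GATA letters AGATAA were in 4.85%, 4.55% and 4.65% of the 3 classes (11.5% of all windows, 2.63% of CpG-rich ones), and the E-box CAGCTG in 15.4%, 15.3% and 14.2% (16.1% and 13.9%). Motifs were searched on both strands, and none of the 4 is contained in another. Against CpG-rich windows the Runx letters, and likewise the GATA letters, were thus more frequent in all 3 classes. For GATA the ILC2/b6-restricted interval (2.82 to 7.26%) overlapped that of CpG-rich windows (2.26 to 3.07%). Against all windows the GATA letters were less frequent in all 3 classes, and the Runx letters in Scid.adh.2c2-restricted and shared windows. The ILC2/b6-restricted Runx interval took in the share of all windows. The CpG-rich windows were richer than the Bcl11b windows, with medians of 28 CpG and 67.0% GC. Median GC was 61.7% in Scid.adh.2c2-restricted, 62.8% in ILC2/b6-restricted and 62.7% in shared windows, and the part of base composition was not tested. The ETS letters stood above the CpG-rich share in shared windows only, with the Scid.adh.2c2-restricted interval (33.7 to 39.7%) taking it in and the ILC2/b6-restricted interval (25.6 to 35.1%) reaching up to it.

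Runx binding accompanied most Bcl11b peaks of the same line. Away from promoters, the other line's partner factors were found at a minority of restricted peaks. Of Scid.adh.2c2-restricted peaks, 69.9% overlapped a Runx3 peak, 56.9% a Runx1 peak and 21.3% a GATA3 peak of Scid.adh.2c2, and 77.0% at least 1 of the 3. Of ILC2/b6-restricted peaks, 83.5% overlapped a Runx3 peak, 72.01% a Runx1 peak and 42.9% a GATA3 peak of ILC2/b6, and 89.6% at least 1. Shared peaks overlapped at least 1 partner of Scid.adh.2c2 at 84.1% and of ILC2/b6 at 91.3%, with GATA3 at 16.7% and 20.1%. The lists differ in length, with 20523 Runx3, 13664 Runx1 and 36973 GATA3 peaks in Scid.adh.2c2 against 44938, 26258 and 33709 in ILC2/b6, which bears on every share given for a partner.

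GATA3 peaks overlapped Bcl11b peaks more often outside promoters than at them, and few GATA3 peaks were at promoters at all. Promoters held 2.70% of the Scid.adh.2c2 and 4.09% of the ILC2/b6 GATA3 list, against 35.8% and 23.4% of the Bcl11b lists. Among ILC2/b6-restricted peaks, 45.6% of those outside promoters and 16.3% of those at promoters overlapped an ILC2/b6 GATA3 peak. Among Scid.adh.2c2-restricted peaks, 26.3% outside promoters and 4.32% at promoters overlapped a Scid.adh.2c2 GATA3 peak.

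The partners of the line without Bcl11b were less often present. At least 1 ILC2/b6 partner peak overlapped 39.0% of Scid.adh.2c2-restricted Bcl11b peaks, which was 70.9% at promoters and 29.6% elsewhere. At least 1 Scid.adh.2c2 partner peak overlapped 14.4% of ILC2/b6-restricted peaks, 21.1% at promoters and 13.7% elsewhere. Runx1 of Scid.adh.2c2 overlapped 2.66% of ILC2/b6-restricted peaks and Runx3 of that line 6.29%. Thus most ILC2/b6-restricted sites had no peak of any of the 4 factors in Scid.adh.2c2.

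**Figure D3:**
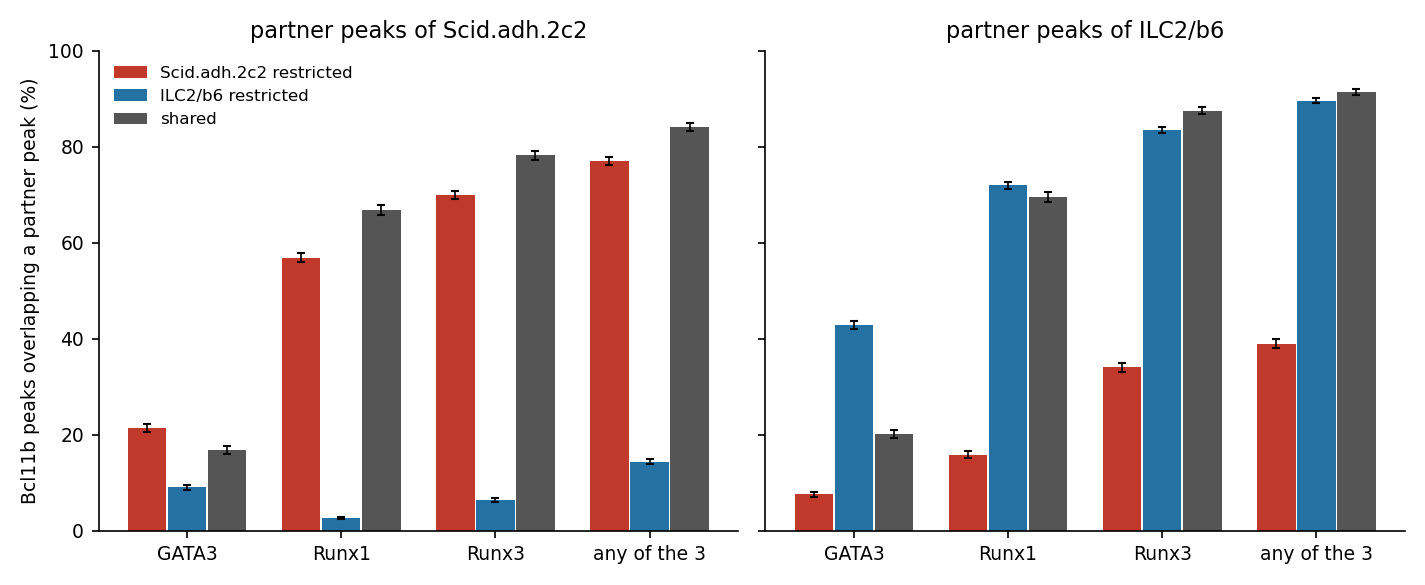
Percent of Bcl11b peaks (y axis) that overlap a GATA3, Runx1 or Runx3 peak of Scid.adh.2c2 and of ILC2/b6, for Scid.adh.2c2-restricted, ILC2/b6-restricted and shared Bcl11b peaks; bars are 95% Wilson intervals. Partner binding of the same line reaches 77.0% and 89.6% at restricted peaks, and that of the other line 39.0% and 14.4%.

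As shares of all peaks of a class, restricted peaks were also more often annotated to repeats. Promoter peaks, included here, were 22.8% of Scid.adh.2c2-restricted, 9.24% of ILC2/b6-restricted and 53.1% of shared peaks. Their part in the repeat shares was not tested. LTR elements held 5.56% of Scid.adh.2c2-restricted, 7.03% of ILC2/b6-restricted and 2.46% of shared peaks, and LINE elements 2.12%, 3.97% and 0.908%. CpG islands outside the annotated gene parts held 2.95%, 3.31% and 5.98%.

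Peaks were spread over many genes in both lines, with more genes of many peaks in ILC2/b6. In Scid.adh.2c2 9979 genes were nearest to at least 1 peak, with a mean of 1.79 ± 1.59 peaks per gene (SD over genes) and 5.21% of genes having 5 or more. In ILC2/b6 there were 10242 such genes, with a mean of 2.12 ± 2.10 and 9.0% at 5 or more. Of the 12816 genes nearest a peak in either line, 2574 (20.1%) had peaks in Scid.adh.2c2 only, 2837 (22.1%) in ILC2/b6 only, 6121 (47.8%) in both with at least 1 shared site, and 1284 in both without a shared site. Of the genes bound in each line, 7405 were bound in both. Any peak in each line was enough for this, even without a shared site, so the count cannot be set against the sharing of single peaks.

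The gene with the most peaks in Scid.adh.2c2 had 24 and that in ILC2/b6 32. In Scid.adh.2c2 the first was 4930465M20Rik with 24 peaks (9 in ILC2/b6), followed by 4933406K04Rik with 23 (6), Gse1 with 22 (6), Gm17746 with 21 (27), and Cxcr4, the receptor of CXCL12 in the thymus and marrow, with 18 (9). Dynlt1f also had 18 (4 in ILC2/b6), in a tandem array of near-identical copies where reads cannot be placed with certainty. In ILC2/b6 the genes with the most were 1700061F12Rik with 32 peaks (5 in Scid.adh.2c2), H2afy3 with 28 (11), Gm17746 with 27 (21), Acvr2a, an activin receptor, with 27 (none in Scid.adh.2c2), and Mir6388 with 26 (none). The largest excess in Scid.adh.2c2 was at 4933406K04Rik, Gm30214 (17 and none), Gse1, 1700092K14Rik (16 and none) and 4930465M20Rik. After 1700061F12Rik, Acvr2a and Mir6388, the largest excess in ILC2/b6 was at Inpp4b, a phosphoinositide phosphatase (none in Scid.adh.2c2 and 21), and Sgms1, a sphingomyelin synthase (2 and 20). Nearest-gene assignment does not show which gene a distal peak acts on.

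Some of the highest-scoring peaks lay at gene families or repeats. The top Scid.adh.2c2-restricted peak was intergenic near Ly6c2, a GPI-anchored surface protein gene of a cluster of close paralogs (chr15:74917126-74917362 on mm9, 25123 bp from the TSS), with a score of 3040.2 where the list's median was 27.6. It was followed by Rdm1 (522.1), Elfn2 (323.4) and a pair of Dynlt1f copies and a site at -159455 bp from the TSS of Mir181a-1, the host locus of a microRNA that tunes T-cell receptor sensitivity (268.9 each). The Mir181a-1 site (chr1:139703459-139703695) overlapped GATA3, Runx1 and Runx3 peaks of Scid.adh.2c2. In ILC2/b6 the top restricted peaks were at Txndc11 (433.1) and Pex2 (419.9), both on ribosomal RNA repeats, then Sfi1 (402.8), Klhl35 (320.0) and Mir6897 (311.8). Among shared peaks, ordered by the lower of the 2 ranks, the top were Rn45s, the ribosomal RNA precursor (591.7 in Scid.adh.2c2 and 2144.0 in ILC2/b6), Gm21119 (585.7 and 291.2), the promoter of Wtap, a subunit of the RNA methylation complex (274.6 and 325.4), Pisd-ps3 (244.5 and 437.7) and Rdm1 (687.8 and 248.8).

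Rag1, Ptcra, Notch3 and Tcf7 carried Bcl11b peaks in Scid.adh.2c2 that ILC2/b6 lacked, and their transcripts were lower with the Bcl11b guide. Rag1 (chr2:101478411-101489689 on mm9) had its Scid.adh.2c2-restricted promoter peak, together with GATA3, Runx1 and Runx3 peaks of that line, and a shared peak in its first intron (scores 26.4 and 35.9). Rag1 had 11.7 and 11.01 RPKM with sgBcl11b, against 64.1 and 75.7 RPKM with sgCont in Scid.adh.2c2. The groups did not overlap, and the log2 fold change was -2.57 ± 0.08 (SE; limma, Benjamini-Hochberg adjusted p = 3.48e-07). In bulk RNA, fewer cells expressing a gene and less RNA per cell cannot be told apart. Rag2, the partner subunit of the recombinase, had 3 Scid.adh.2c2-restricted peaks, one of them at -73391 bp from its TSS with a score of 172.1 and all 3 partner factors (chr2:101391396-101391632), but at 0.137 and 0.081 RPKM with sgBcl11b and 0.763 and 0.655 RPKM with sgCont it was too low to test.

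Ptcra, which pairs with the beta chain in the pre-T-cell receptor (chr17:46892612-46900661), had a single peak, at -4310 bp from the TSS, in Scid.adh.2c2 only (score 57.5, with Runx1 and Runx3). Ptcra had 7.96 and 7.88 RPKM with sgBcl11b, against 31.6 and 31.1 RPKM with sgCont in Scid.adh.2c2, a log2 fold change of -1.92 ± 0.05 (limma adjusted p = 1.71e-07). The Notch receptor gene Notch3 (chr17:32257838-32303797) had 1 Scid.adh.2c2-restricted peak in its first intron, with a score of 22.3. Notch3 had 3.33 and 3.28 RPKM with sgBcl11b and 13.8 and 17.7 RPKM with sgCont, a log2 fold change of -2.09 ± 0.11 (adjusted p = 5.68e-06). For neither gene did the groups overlap.

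Tcf7 and Notch1 show that peak number and change did not go together locus by locus. Tcf7, a T-cell factor induced by Notch (chr11:52065785-52096516), had 8 Scid.adh.2c2 peaks, all upstream of the gene and none shared, the strongest with a score of 197.7 at -35555 bp (chr11:52131953-52132189). Tcf7 had 216 and 218 RPKM with sgBcl11b, against 389 and 389.9 RPKM with sgCont, a log2 fold change of -0.84 ± 0.04 (limma adjusted p = 2.74e-06). Notch1 (chr2:26313422-26359342) had no Bcl11b peak in Scid.adh.2c2 and 3 in ILC2/b6, yet had 23.9 and 23.5 RPKM with sgBcl11b and 68.5 and 81.9 RPKM with sgCont in Scid.adh.2c2 (-1.64 ± 0.08, adjusted p = 2.98e-06). In ILC2/b6, where it was bound, Notch1 had 17.1 and 18.0 RPKM with sgBcl11b and 20.4 and 20.0 RPKM with sgCont (-0.20 ± 0.05, adjusted p = 0.0291), a call that ended without any single library but sgCont replicate 2 and without the expression filter (adjusted p 0.0560 to 0.197). Cd3e, a T-cell receptor complex subunit with 2 peaks in each line and 1 shared, had 172 and 174 RPKM with sgBcl11b and 173 and 174 RPKM with sgCont in Scid.adh.2c2, and its groups overlapped.

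At innate genes, Scid.adh.2c2 peaks were present, few or absent where the transcript was higher with the Bcl11b guide. Il2rb, which encodes a receptor chain through which IL-2 and IL-15 signal (chr15:78310979-78325496), had 1 Scid.adh.2c2-restricted peak of score 23.5 at -17068 bp, and 3 ILC2/b6-restricted peaks, at the promoter, in the first intron and upstream (scores 69.0, 107.1 and 64.0). In Scid.adh.2c2 Il2rb had 125.5 and 126 RPKM with sgBcl11b, against 1.83 and 1.54 RPKM with sgCont (log2 fold change 5.86 ± 0.07, limma adjusted p = 1.76e-08). In ILC2/b6 it had 148.5 and 149.8 RPKM with sgBcl11b, against 156 and 149 RPKM with sgCont, and the groups overlapped. The guide effect differed between the lines by 5.89 ± 0.08 log2 units (limma interaction, adjusted p = 1.26e-10). Ncr1, the NK receptor NKp46, had no peak in either list, and had 37.6 and 36.3 RPKM with sgBcl11b and 0.142 and 0.258 RPKM with sgCont in Scid.adh.2c2 (5.75 ± 0.10, adjusted p = 3.83e-08, and 0.000304 without the filter, which Ncr1 passed through its sgBcl11b libraries).

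Runx3 (chr4:134676560-134733905) had 11 peaks in Scid.adh.2c2 and 9 in ILC2/b6, of which 3 were shared, including a promoter peak with scores of 172.6 and 84.2. Further strong peaks were restricted, one in its first intron in Scid.adh.2c2 (156.4, with all 3 partners) and one at -50643 bp from the TSS in ILC2/b6 (179.6). Runx3 had 18.0 and 18.2 RPKM with sgBcl11b, against 3.07 and 3.28 RPKM with sgCont in Scid.adh.2c2, and 43.7 and 43.7 RPKM against 46.5 and 42.9 RPKM in ILC2/b6. Its groups were apart in Scid.adh.2c2 and overlapped in ILC2/b6, and the effect differed between lines by 2.37 ± 0.07 log2 units (limma interaction, adjusted p = 5.63e-09). Id2, an inhibitor of E proteins, had both of its ILC2/b6 peaks shared, on either side of the gene. Id2 had 214 and 218 RPKM with sgBcl11b and 47.7 and 43.2 RPKM with sgCont in Scid.adh.2c2, and 321 and 320.1 RPKM and 316 and 331 RPKM in ILC2/b6, so that the same sites stood beside a rise in one line and overlapping groups in the other (difference 2.25 ± 0.07, adjusted p = 5.63e-09).

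Rora and Zbtb16, factors of early innate lymphoid cells, were bound mostly or only in the pro-T line. Rora had 13 peaks in Scid.adh.2c2 and 3 in ILC2/b6, with 2 shared, between -255262 and 30637 bp from the annotated TSS, many of them in the introns of a longer Rora transcript. Rora had 20.8 and 20.1 RPKM with sgBcl11b and 6.37 and 6.83 RPKM with sgCont in Scid.adh.2c2 (1.56 ± 0.06, adjusted p = 1.08e-06). In ILC2/b6 it had 2.96 and 2.997 RPKM and 3.21 and 3.85 RPKM (-0.21, adjusted p = 0.174). Zbtb16, which encodes PLZF, had 7 Scid.adh.2c2-restricted peaks and none in ILC2/b6, where it was listed at 0 in all 4 libraries. With 0.988 and 1.197 RPKM in sgBcl11b and 0.112 and 0.169 RPKM in sgCont libraries of Scid.adh.2c2 it was below the filter.

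The ILC2 receptor genes Il1rl1 and Klrg1 carried 10 and 9 Bcl11b peaks in ILC2/b6 and none in Scid.adh.2c2. Il1rl1, the IL-33 receptor, had 10 ILC2/b6-restricted peaks, 9 of them before the TSS, out to -49159 bp, and 1 in an intron, with scores of 24.1 to 82.5, and none in Scid.adh.2c2. Il1rl1 had 313 and 323 RPKM with sgBcl11b, against 306 and 339 RPKM with sgCont in ILC2/b6, and its groups overlapped (log2 fold change -0.02, limma adjusted p = 0.854). Klrg1, an inhibitory receptor of mature ILC2s, had 9 ILC2/b6-restricted peaks, with scores of 18.0 to 74.9, and had 151 and 151 RPKM with sgBcl11b against 134 and 133 RPKM with sgCont (0.18 ± 0.03, adjusted p = 0.0124), a call that ended without either sgBcl11b library (adjusted p = 0.0933 and 0.0935). In Scid.adh.2c2, with no peak, Klrg1 had 1.07 and 1.29 RPKM with sgBcl11b and 0.118 and 0.106 RPKM with sgCont (1.45 ± 0.12, adjusted p = 4.96e-05, and 0.00173 without the filter, which Klrg1 passed there because its sgBcl11b values were high).

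Areg and the type 2 cytokine genes Il13 and Il5 fell in ILC2/b6. Areg (chr5:91568625-91577458) had 3 ILC2/b6-restricted peaks, at its promoter (score 46.7) and, with lower scores, at -15325 and -29091 bp. Areg had 243 and 254 RPKM with sgBcl11b, against 476 and 469.9 RPKM with sgCont, a log2 fold change of -0.93 ± 0.04 (limma adjusted p = 2.08e-05) with groups far apart. Il13 (chr11:53444825-53448204) had 8 ILC2/b6 peaks, 5 of them in introns of the neighbouring Rad50 gene, and its highest score was 209.0, 1635 bp upstream. Of these, 3 were shared with Scid.adh.2c2, where their scores were 20.8 to 48.5. Il13 had 3025 and 3151 RPKM with sgBcl11b, against 4472 and 4406 RPKM with sgCont in ILC2/b6 (-0.52 ± 0.04, adjusted p = 0.000487), and 7.65 and 8.43 RPKM against 2.21 and 0.816 RPKM in Scid.adh.2c2 (2.18 ± 0.29, adjusted p = 0.000633). The direction was thus opposite in the lines, and the difference was 2.70 ± 0.34 (limma interaction, adjusted p = 0.000139). Il5 (chr11:53534296-53538605) had 3 ILC2/b6 and 2 Scid.adh.2c2 peaks, none shared, and had 1881 and 1874 RPKM with sgBcl11b against 2671 and 2869 RPKM with sgCont in ILC2/b6 (-0.56 ± 0.05, adjusted p = 0.000518).

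A chymase and a tryptase gene of mast cells differed in binding although both rose in ILC2/b6. Cma1, a chymase (chr14:56560288-56563512), had 2 ILC2/b6-restricted peaks, one 21870 bp from its TSS with a score of 139.9 and all 3 partners, and 1 Scid.adh.2c2 peak. Cma1 had 24.1 and 24.3 RPKM with sgBcl11b, against 1.93 and 2.50 RPKM with sgCont in ILC2/b6 (3.20 ± 0.09, limma adjusted p = 9.33e-06). Tpsb2, a tryptase with a close paralog, had no peak in either list, and had 44.7 and 44.9 RPKM with sgBcl11b and 5.18 and 5.66 RPKM with sgCont (2.94 ± 0.05, adjusted p = 8.49e-07). Cd244, an NK receptor, had 3 ILC2/b6-restricted peaks in its first intron and 5.55 and 5.92 RPKM with sgBcl11b, against 0.4 and 0.387 RPKM with sgCont (2.80 ± 0.08, adjusted p = 9.33e-06, and 0.00394 without the filter, which Cd244 passed through its sgBcl11b libraries).

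Il2ra and Gata3 were bound in both lines at mostly different sites. Il2ra, the high-affinity IL-2 receptor chain, had 6 Scid.adh.2c2 and 7 ILC2/b6 peaks, of which 2 were shared, the promoter and a site at -19485 bp. Il2ra had 44.3 and 42.8 RPKM with sgBcl11b and 150.3 and 168 RPKM with sgCont in Scid.adh.2c2 (-1.86 ± 0.06, limma adjusted p = 3.71e-07), and 947 and 925 RPKM and 915 and 907 RPKM in ILC2/b6 (0.04, adjusted p = 0.505). Gata3 had 11 peaks in each line, of which 3 were shared, the farthest at 319869 bp past the TSS. Gata3 had 63.1 and 66.2 RPKM with sgBcl11b and 54.0 and 57.0 RPKM with sgCont in Scid.adh.2c2 (0.22 ± 0.05, adjusted p = 0.00506), a call that ended after median centring (0.09, adjusted p = 0.142) and when sgBcl11b replicate 2 was left out (adjusted p = 0.0586). In ILC2/b6 it had 150.6 and 163 RPKM with sgBcl11b and 146 and 151 RPKM with sgCont, which overlapped.

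**Figure D4:**
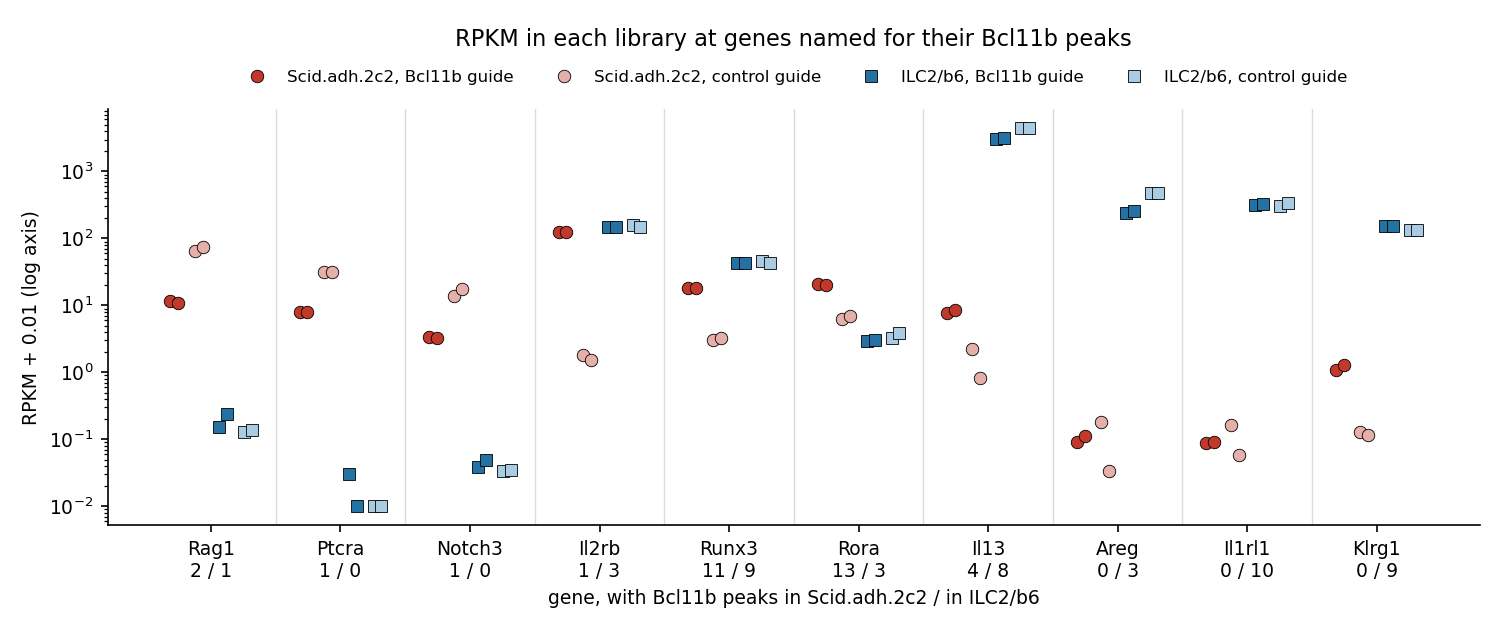
RPKM + 0.01 of each library (log axis) for 10 genes described for their Bcl11b peaks, with the number of peaks in Scid.adh.2c2 and in ILC2/b6 under each name; each point is 1 library, sgBcl11b left of sgCont in each line. Rag1, Ptcra and Notch3 are lower and Il2rb, Runx3 and Rora higher with sgBcl11b in Scid.adh.2c2, and Il13 and Areg are lower in ILC2/b6.

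Genes bound in 1 line were also expressed more in that line. In the control libraries, genes with peaks in Scid.adh.2c2 only had median levels of 2.04 and 2.19 RPKM in Scid.adh.2c2 and 0.353 and 0.368 RPKM in ILC2/b6. Genes with peaks in ILC2/b6 only had medians of 0.016 and 0.014 RPKM in Scid.adh.2c2 and 0.982 and 1.01 RPKM in ILC2/b6. Genes with a shared site had 10.5 and 11.1 RPKM in Scid.adh.2c2 and 9.29 and 9.32 RPKM in ILC2/b6. These are levels from separately normalized tables, and 12617 of the 12816 genes (98.4%) were matched by symbol.

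In Scid.adh.2c2, large falls were more frequent among genes bound only there. Of all 10221 tested genes, 57.8% were called with the Bcl11b guide (35.1% rose and 22.7% fell; limma, adjusted p under 0.05), and with a change of at least 2-fold 8.43% were called (6.75% rose and 1.68% fell). The sgBcl11b and sgCont values were apart for 80.0% of tested genes. Of the tested genes nearest a Scid.adh.2c2 peak 4471 were called, against 2925 without sgBcl11b replicate 1 and 2878 without sgBcl11b replicate 2. Of 1447 tested genes with peaks in Scid.adh.2c2 only, 866 (59.8%) were called, close to the share of all genes. At 2-fold, however, 76 of them (5.25%) fell, against 1.022% of genes with a shared site, 1.15% of genes bound in ILC2/b6 only and 1.09% of genes without a peak, while 91 (6.29%) rose.

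The share of 2-fold falls among genes bound in Scid.adh.2c2 only was 2.78 to 3.38 times that of all tested genes over 11 settings. Of the 76 genes, 20 had both sgBcl11b libraries under 1 RPKM and so passed the filter through the controls; without a filter the share was 3.53%. Genes bound in ILC2/b6 only rose 2-fold in Scid.adh.2c2 in 10.8% of cases (85 of 784), but 44 of these had both control libraries under 1 RPKM, and without a filter the share was 4.88%, which was 1.10 times that of all genes. The split by direction depended on scaling: of the called genes nearest a Scid.adh.2c2 peak, 61.9% rose without further scaling. Median centring gave 39.3% and quantile normalization 39.8%, as the median of all genes was 0.13 log2 units higher in the sgBcl11b libraries.

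In ILC2/b6 the genes bound only there were called most often. Of 10526 tested genes, 14.5% were called (8.32% rose and 6.21% fell), 0.599% with at least 2-fold (0.485% rose and 0.114% fell), and the groups did not overlap for 59.9%. Of the tested genes nearest an ILC2/b6 peak 1217 were called, against 719 without sgBcl11b replicate 1, 605 without sgBcl11b replicate 2 and 482 without the filter on low values. Among 1430 tested genes with peaks in ILC2/b6 only, 363 (25.4%) were called, against 13.5% of genes with a shared site, 9.05% of genes bound in Scid.adh.2c2 only and 10.8% of genes without a peak. The ratio to all tested genes was 1.47 to 2.00 over 11 settings, and that of genes bound in Scid.adh.2c2 only 0.423 to 0.751. Of the called genes 214 rose and 149 fell. With median-centred values 40.3% of the called genes nearest an ILC2/b6 peak rose, against 55.8% as deposited.

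The share of called genes went up with the number of peaks in both lines. In Scid.adh.2c2 54.6% of genes with 1 peak, 66.2% with 2 to 4 and 76.9% with 5 or more were called, and in ILC2/b6 12.0%, 19.5% and 29.2%. Gene length moved with it: the median transcribed span was 18.1, 24.2 and 61.3 kb in Scid.adh.2c2 and 17.5, 24.98 and 59.2 kb in ILC2/b6, and its part in the result was not tested. Genes with promoter peaks only were rarely changed by 2-fold in Scid.adh.2c2 (2.78%), against 23.2% of genes whose peaks were all distal and restricted to that line. Many of the latter passed the filter only through the group where they were high. Of their 104 rises, 43 had both control libraries under 1 RPKM, and of their 57 falls, 19 had both sgBcl11b libraries under 1 RPKM. For promoter peaks only this held for 15 of 91 rises and 0 of 14 falls. In ILC2/b6 10.4% of genes with promoter peaks only and 22.2% of those with restricted distal peaks only were called. Control levels differed between these genes in Scid.adh.2c2, with medians of 14.6 RPKM for promoter peaks only and 6.78 RPKM for restricted distal peaks only, and their part was not tested either.

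**Figure D5:**
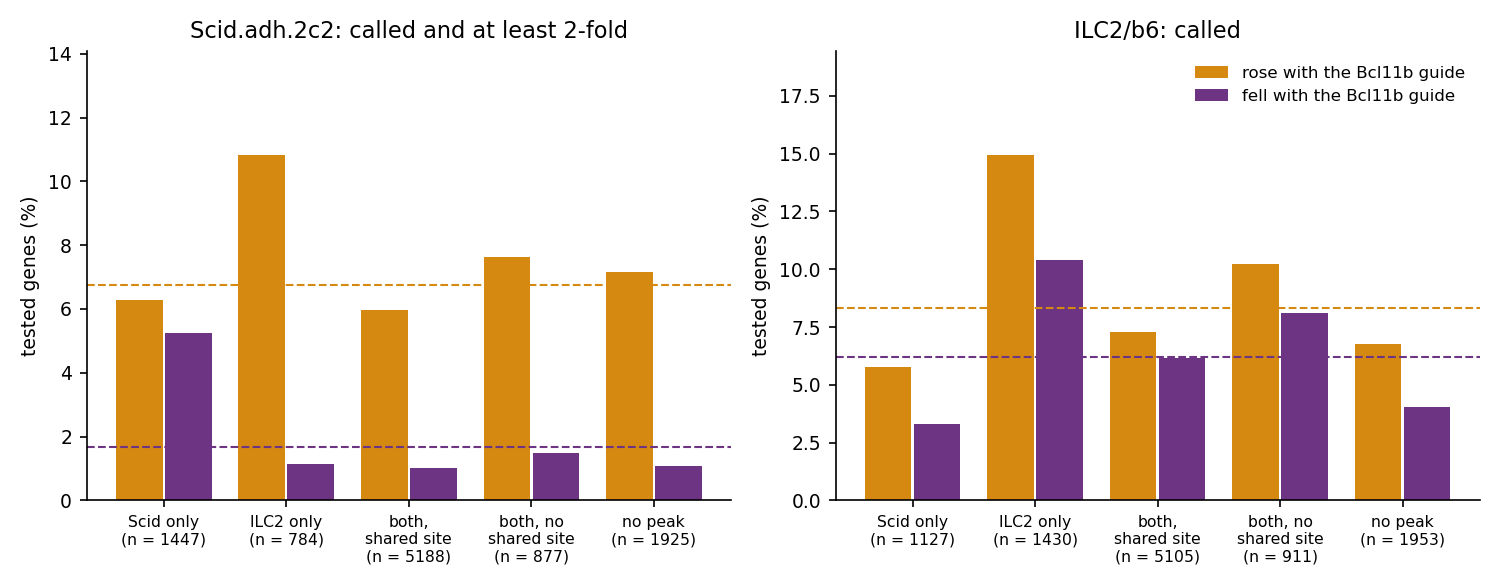
Percent of tested genes that rose or fell with sgBcl11b against sgCont, by where the gene had Bcl11b peaks: left, called and at least 2-fold in Scid.adh.2c2; right, called in ILC2/b6; dashed lines give the share over all tested genes. Falls in Scid.adh.2c2 stand at 5.25% for genes bound in Scid.adh.2c2 only, against 1.68% of all, and calls in ILC2/b6 are most frequent for genes bound in ILC2/b6 only.

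Between the lines, the guide effect differed for 45.8% of the 9147 genes testable in both (28.0% higher and 17.8% lower in Scid.adh.2c2; limma interaction), and by at least 2-fold for 6.28% (5.25% higher and 1.03% lower). The shares were 44.4% for genes bound in Scid.adh.2c2 only, 48.3% for genes bound in ILC2/b6 only, 48.0% for genes with a shared site and 37.6% for genes without a peak. The share was no lower for genes with a shared site than for all tested genes.

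Among genes bound in Scid.adh.2c2 only, 91 rose at least 2-fold, a share of 6.29% where 6.75% of all tested genes did, and 32 of the 91 had both control libraries under 1 RPKM and so were tested because they rose. Ly6c2, Ly6g, Mpeg1 and Pik3c2g were among these. Ly6c2, next to the top-scoring peak, had 46.5 and 42.6 RPKM with sgBcl11b, against 0.308 and 0.458 RPKM with sgCont in Scid.adh.2c2 (log2 fold change 5.68 ± 0.10, limma adjusted p = 4.11e-08). In ILC2/b6, where it had no peak, it had 38.1 and 40.6 RPKM with sgBcl11b and 47.1 and 49.2 RPKM with sgCont (-0.29 ± 0.05, adjusted p = 0.0072). Ly6g, a paralog in the same cluster whose reads may not be its own, followed with 5.55. Mpeg1, a macrophage perforin, had 11.8 and 11.7 RPKM against 0.422 and 0.339 RPKM (3.8). Ms4a4b, a lymphocyte membrane protein, and Cd7, an early T and NK surface protein, had log2 fold changes of 3.77 and 3.07. Mir6381, a short RNA that these libraries measure poorly, Aim1l and Pik3c2g had 3.54, 3.31 and 3.10. Each of the 8 had 1 or 2 peaks.

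The 76 genes bound in Scid.adh.2c2 only that fell at least 2-fold were led by Stc1, a secreted glycoprotein, with 0.885 and 0.825 RPKM with sgBcl11b against 8.67 and 7.84 RPKM with sgCont (-2.69 ± 0.09, limma adjusted p = 5.69e-07) and 4 peaks. Arsi, a sulfatase with 4 peaks, had 7.38 and 7.24 RPKM against 43.8 and 45.5 RPKM (-2.53). The homeobox genes Rhox7a and Rhox8, of a cluster with close copies, had -2.30 and -2.23. Mtus2, with 4 peaks, had -2.29, as did D430041D05Rik, and Akap12, a kinase anchor, had -2.21. Mgarp had -2.24, and its control libraries lay far apart at 5.87 and 2.33 RPKM.

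In ILC2/b6, 16 genes bound there only (1.119%) rose at least 2-fold and 4 (0.28%) fell, where 0.485% and 0.114% of all tested genes did. Genes with no peak in either line had like shares, at 0.92% and 0.26% (18 and 5 of 1953). Of the 16, 6 had both control libraries under 1 RPKM and so were tested because they rose, among them Pilrb1, Pga5, Ccbe1, Pilra and Sh2d1b1. The rises were led by Pilrb1, an activating receptor of myeloid and NK cells with 4 peaks, at 3.14 and 3.36 RPKM with sgBcl11b against 0.475 and 0.505 RPKM with sgCont (1.92 ± 0.09, limma adjusted p = 5.67e-05). Pilra, its inhibitory partner, had 1.64. Pga5, Ccbe1, P2rx1 and Htra1 had 1.87, 1.73, 1.71 and 1.63, and Anpep, the myeloid aminopeptidase CD13, and Sh2d1b1, an adaptor of NK-cell SLAM receptors, had 1.56 and 1.54. P2rx1, an ATP-gated channel, had 17.6 and 19.4 RPKM with sgBcl11b and 5.38 and 5.26 RPKM with sgCont, the highest level of the 8. The falls were of Prr5l (-1.17), Smpdl3a (-1.16), Filip1 (-1.03, with 8 peaks) and Tff1, a secreted trefoil factor, with 76.0 and 67.3 RPKM against 158 and 133 RPKM (-1.01 ± 0.09, adjusted p = 0.000644).

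Counted by gene list, peaks of Scid.adh.2c2 outnumbered those of ILC2/b6 at T-lineage and Notch genes, and the reverse held at ILC2, NK and cytokine signalling genes. The reverse also held over all genes, with 17874 Bcl11b peaks in Scid.adh.2c2 and 21677 in ILC2/b6, which bears on every count of peaks below. Beside the called members of every list below, 35.1% of all tested genes rose and 22.7% fell in Scid.adh.2c2. In ILC2/b6 these shares were 8.32% and 6.21%. The 31 genes of T-lineage identity and receptor signalling had 108 peaks in Scid.adh.2c2 and 82 in ILC2/b6, with 25 shared. Themis had 10 and 1, Lef1 11 and 6, Cd247 8 and 2, and Cd2 4 and none. Of 25 tested in Scid.adh.2c2, 14 rose and 7 fell (median log2 fold change 0.26, against 0.05 over all tested genes), which became 12 and 10 with median-centred values and 14 and 10 with quantile normalization. The members that moved included Lef1 at -2.13, Lck, the receptor-proximal kinase, at -0.78 and Cd2 at 1.32. Of 15 tested in ILC2/b6, none rose and 8 fell (median -0.15, against 0.02 over all), among them the adaptors Ubash3a (-0.75), Grap2 (-0.52, with 9 ILC2/b6 peaks) and Lat (-0.41). The share of falls there was 8 of 15, where 6.21% of all tested genes fell, and 5 of 15 fell without sgBcl11b replicate 2.

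The 9 Notch response genes had 30 and 17 peaks. All 8 tested in Scid.adh.2c2 fell (median -1.74), 7 of them with a Scid.adh.2c2 peak and Notch1 without. Hes5 and Dtx1, direct Notch targets with 3 Scid.adh.2c2-restricted peaks each, had log2 fold changes of -1.87 and -1.77, and Nrarp, with 6 peaks in Scid.adh.2c2 and 2 in ILC2/b6, had -1.72. In ILC2/b6 1 of 5 rose (Hes1, 0.29, a call that ended without 3 of the 4 libraries, among other settings) and 1 fell. The 6 recombination genes had 11 and 4 peaks, and all 4 tested in Scid.adh.2c2 fell (median -1.71), among them the end-joining genes Xrcc6 (-1.36) and Lig4 (-1.50), while neither of the 2 tested in ILC2/b6 was called. Of the 18 partner factor genes 15 had a shared site, with 88 and 98 peaks, and 2 fell of 16 in ILC2/b6 (5 with median-centred values, 1 without sgBcl11b replicate 1 and none without the filter). In Scid.adh.2c2 6 rose and 3 fell of 15, where 57.8% of all tested genes were called (35.1% rose and 22.7% fell). The split turned to 4 and 7 with median-centred values and 6 and 6 with quantile normalization. Runx1 had 13 peaks in Scid.adh.2c2 and 21 in ILC2/b6 and was not called in either line.

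The 30 ILC2 identity and effector genes had 86 peaks in Scid.adh.2c2 and 138 in ILC2/b6, with 27 shared. Icos, a costimulatory receptor, had 2 and 9, Il7r 3 and 10, Lif 6 and 13, Il6 1 and 8, and Nmur1, the neuromedin U receptor, none and 6. Of 28 tested in ILC2/b6, 3 rose and 7 fell (median -0.01), with Icos at 0.45, Nmur1 at -0.46 and Tnfsf11 at -0.65. In Scid.adh.2c2 11 rose and 6 fell of 20 (median 0.57). Without sgBcl11b replicate 1 it was 6 and 5 of 15 (median -0.03) and without sgBcl11b replicate 2 it was 5 and 5 of 15 (median -0.03), since fewer genes passed the filter. Their largest rise was that of Arg1, which had no Scid.adh.2c2 peak, at 3.99. The 18 cytokine signal regulators had 46 and 67 peaks. Socs1, an inhibitor of cytokine receptor kinases, had 10 and 14, Jak1 2 and 13 without a shared one, Il4ra none and 6, and Cish none and 3 with a score of up to 203.0. Of these regulators 9 rose and 5 fell of 14 in Scid.adh.2c2, and 4 rose and 5 fell of 17 in ILC2/b6, all by under 2-fold in ILC2/b6. Without sgBcl11b replicate 2, 2 rose and 1 fell in ILC2/b6, without sgBcl11b replicate 1, 4 rose and 2 fell, and without the filter 1 rose and 1 fell. In Scid.adh.2c2 8 rose and 2 fell of 13 without either sgBcl11b library.

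The 28 NK and innate effector genes had 29 and 45 peaks, and 7 had none in either line. Of 16 tested in Scid.adh.2c2, 13 rose and 1 fell (median 3.31), but 6 of the 13 (Ncr1, Prf1, Tyrobp, Ifng, Ccl3 and Ccl4) averaged under 1 RPKM in the controls and so passed the filter because they rose, and of the 10 genes tested without sgBcl11b replicate 1 or 2, 7 or 8 rose. In ILC2/b6 6 rose and 1 fell of 13 (median 0.30). Among the 6, Cd244 (0.4 and 0.387 RPKM) and Sh2d1b1 (0.137 and 0.112 RPKM) had both control libraries under 1 RPKM and so were tested because they rose. Without sgBcl11b replicate 1 only 9 genes were tested there, with a median of 0.08. Without sgBcl11b replicate 2 it was 10 genes and a median of 0.01. Tbx21, the T-bet factor, with 1 peak of score 21.7, had a log2 fold change of 3.70, and Ccl3 and Nkg7, a granule protein, with no Scid.adh.2c2 peak, had 5.73 and 4.65. The summed level of the 8 NK markers was 112 RPKM in both sgBcl11b libraries and 9.36 and 6.39 RPKM in sgCont libraries, with Eomes and Klrd1 under 1 RPKM in all of them, and the part of any NK-like cells in these changes was not tested. Interferon response genes, 24 in number, had only 21 and 13 peaks, and 8 had none, yet all 24 rose in Scid.adh.2c2 (median 2.38), 14 with a Scid.adh.2c2 peak and 10 without. In ILC2/b6 4 of 13 rose (Bst2, Ddx58, Xaf1 and Ifi27), by 0.14 to 0.34, against 2 with either scaling and none without sgBcl11b replicate 2.

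The 20 mast and myeloid genes had 14 and 17 peaks, with 2 shared. In ILC2/b6 8 rose and 1 fell of 11 tested (median 0.96), with Mcpt8, a basophil protease with 3 ILC2/b6-restricted peaks and a score of up to 176.1, at 0.87, C5ar1, a complement receptor, at 2.90, and Mcpt1 and Mcpt2, with no peak, at 1.06 and 0.55. These proteases belong to families of close copies. The 8 mast and myeloid markers summed to 68.7 and 69.3 RPKM with sgBcl11b and 7.20 and 8.17 RPKM with sgCont in ILC2/b6, nearly all of it Cma1 and Tpsb2, while Fcer1a and Ms4a2, which define mast cells, averaged 0.0265 and 0 RPKM with sgBcl11b. In Scid.adh.2c2 4 of 5 tested rose, among them Spi1, the myeloid factor PU.1, with 2 Scid.adh.2c2-restricted peaks, at 2.78. The 8 markers summed to 62.7 and 62.9 RPKM with sgBcl11b and 23.6 and 21.5 RPKM with sgCont in that line, nearly all Cpa3.

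Trafficking and adhesion genes, 20 in number, had 57 and 67 peaks, with 9 that rose and 2 that fell of 13 in Scid.adh.2c2 and 2 that rose and 3 that fell of 16 in ILC2/b6, where none rose without either sgBcl11b library or without the filter. Cd44 had none and 10 peaks and a log2 fold change of 0.24 in ILC2/b6, and Klf2, which controls lymphocyte egress, had 7 and 3 and 2.29 in Scid.adh.2c2. The 12 ILC3 and type 17 genes had 11 and 20 peaks, and Ahr, a ligand-activated factor of gut lymphocytes, had 5 in ILC2/b6 only and a log2 fold change of 0.54 there. Genes of other lineages had few peaks: the 10 B-lineage genes had 3 and 2 and the 13 stem and progenitor genes 8 and 11, with 6 ILC2/b6 peaks at Meis1. The 20 ribosomal protein genes had 16 and 15 peaks, of which 11 were shared and 12 and 9 at promoters, and none of the 20 was called in ILC2/b6, where 14.5% of all tested genes were. In Scid.adh.2c2 12 of the 20 fell and none rose, but with quantile normalization 5 rose and 3 fell, 1 fell without either sgBcl11b library or without the filter, and 19 fell without sgCont replicate 2.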

How the data were processed

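The series has 32 mouse samples in 16 groups of 2. The 8 peak lists analysed here were deposited by the authors as HOMER tables on mm9, 1 per factor and line, each holding reproducible peaks called from 2 libraries together, so that peaks of single libraries could not be compared. Their columns used here are the position, the score as the authors' caller gave it, the annotation class, the nearest gene and the signed distance to its TSS in bp, all as deposited. RNA values are the authors' RPKM per gene, deposited as 1 table per line. The submitters' processing notes name, with no role, the builds mm9 and NCBIM37 and the tools STAR 2.4.0, RSEM 1.2.25, edgeR 3.6.8, Trimmomatic, HOMER and Bowtie 1.1.1. Input libraries were not used.

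The members and gene lists were chosen with earlier results of these data known. From the peak tables, overlaps, shares with Wilson intervals (95%, counting error only) and distances were computed with Python 3.11.15, pandas 2.3.3, numpy 2.4.6 and scipy 1.17.1, and drawn with matplotlib 3.10.9. Peaks were joined to RNA by gene symbol. RNA was tested with limma 3.58.1 (R 4.3.3, trended empirical Bayes) on log2(RPKM + 0.5), which understates fold changes of low genes, for genes with at least 1 RPKM in 2 libraries of a line. P-values were Benjamini-Hochberg adjusted over all tested genes, and a gene was called at an adjusted p under 0.05. The difference between lines was tested as an interaction over 8 libraries. The fits were tested on simulated data. Every deposited RPKM column was mapped to a sample. Low RPKM values were whole multiples of 1 read within 0.1 read for 100% of 2360 to 2900 values per library, which gives the depth. Whether replicates came from separate cultures is not stated in the labels; the p-values rest on how much these libraries varied, and that variation may be technical. The library kit is not stated to mark strand, so overlapping antisense genes cannot be told apart.

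Genes were named by rule: members of the lists, by peak score or fold change, up to 6 per list; the 5 highest-scoring peaks of each class; the 5 genes with the most peaks per line and the 5 with the largest excess each way; up to 8 rises and 8 falls of at least 2-fold per line among genes bound only there; and 25 further loci. Alternatives covered list length, score, overlap, distance, pseudocounts of 0.1 and 1, the filter, scaling, the replicate number as a block and leaving out each library.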

Additional observations from a re-analysis of the deposited data

Results flagged for a closer look

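The guide effect differed between the lines, by the limma interaction, at 9 of the loci named for their Bcl11b peaks. Values are log2 differences, Scid.adh.2c2 minus ILC2/b6, with an adjusted p over all genes testable in both lines. Il2rb differed by 5.89 (adjusted p = 1.26e-10), Il13 by 2.70 (0.000139), Runx3 by 2.37 (5.63e-09), Id2 by 2.25 (5.63e-09) and Rora by 1.77 (9.32e-07). Il2ra differed by -1.90 (3.05e-08), Il17rb by -1.63 (1.85e-07) and Notch1 by -1.44 (1.85e-06). Klrg1 differed by 1.27 (1.84e-06), but with quantile normalization by 0.21 (adjusted p = 0.0926), and it was testable in Scid.adh.2c2 only through the sgBcl11b libraries, where it was high.

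Il17rb, a subunit of the IL-25 receptor, has not been described above. It had 10.6 and 10.5 RPKM with sgBcl11b, against 28.2 and 30.7 RPKM with sgCont in Scid.adh.2c2 (log2 fold change -1.44), and 16.3 and 17.5 RPKM against 14.2 and 15.2 RPKM in ILC2/b6 (0.19, limma adjusted p = 0.0631). Its only Bcl11b peak was a shared one at the promoter, with scores of 22.8 and 16.5. At Id2, Il17rb and Runx3 a shared site thus stood beside different guide effects, whereas Il2rb had no shared site and Notch1 was bound in ILC2/b6 only.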

How the results depend on the processing

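Shared peaks were 37.7% of each list when the longer list was shortened to equal length, 38.3% and 32.0% (Scid.adh.2c2 and ILC2/b6 lists) at scores of at least 30, 39.2% and 32.4% with reciprocal overlap of 50%, and 49.2% and 40.1% with gaps up to 500 bp. In that order of settings, the promoter share was 25.5%, 30.4%, 25.5% and 18.5% of Scid.adh.2c2-restricted peaks, and 28.0% within 1000 bp of a TSS. For ILC2/b6-restricted peaks it was 11.02% at higher scores, 10.97% with reciprocal overlap, 7.71% with gaps and 16.4% within 1000 bp. For shared peaks it was 55.8% at higher scores, 51.9% with reciprocal overlap and 64.6% within 1000 bp. Median distances were 8888, 7290.5, 8901 and 12900 bp for Scid.adh.2c2-restricted peaks. They were 13902 bp at higher scores, 14635 bp with reciprocal overlap and 17286 bp with gaps for ILC2/b6-restricted peaks, and 176.5 bp at higher scores for shared peaks. Peaks per gene were 1.44 and 1.69 at higher scores, 1.61 and 1.87 within 50 kb, and 1.99 in ILC2/b6 at equal lengths. The order of the classes held throughout.

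Partner overlap at scores of at least 30 was, for Scid.adh.2c2 and ILC2/b6 partners, 89.9% and 52.5% of Scid.adh.2c2-restricted, 23.6% and 93.4% of ILC2/b6-restricted and 90.5% and 94.2% of shared peaks. With gaps between Bcl11b peaks these were 77.8% and 36.8%, 12.9% and 91.3%, and 82.4% and 87.1%. With partners within 200 bp they were 79.6% and 43.5%, 17.8% and 92.5%, and 87.3% and 94.9%. ILC2/b6 partners at equal lengths gave 43.1% of Scid.adh.2c2-restricted, 90.9% of ILC2/b6-restricted and 92.03% of shared peaks. Reciprocal overlap gave 42.1% (ILC2/b6 partners at Scid.adh.2c2-restricted peaks) and 17.4% (Scid.adh.2c2 partners at ILC2/b6-restricted peaks).

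Genes called near Scid.adh.2c2 peaks were 2706 at scores of at least 30, with fewer genes tested, and 2878 to 5100 without 1 library. Genes called near ILC2/b6 peaks were 482 without the filter, where the cause was not tested, and 605 to 1675 without 1 library. The difference between lines was called for 2713 to 3718 genes. For single genes and groups of genes, each result was compared under each alternative. Its direction and side of the threshold were the same in 2162 comparisons, whether called or not, while a call was lost in 54 and gained in 19, a value moved in 19 and none reversed.

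Replicate numbers were not shown to pair the samples, as the correlation of same-numbered deviations was 0.037 in Scid.adh.2c2 and 0.106 in ILC2/b6, with only 2 pairs. With the replicate number as a block, 4438 genes were called near Scid.adh.2c2 peaks (4471 without), 1717 near ILC2/b6 peaks (1217 without) and 3451 in the interaction (3589 without). Of genes bound in ILC2/b6 only 34.1% were then called there, and of genes bound in Scid.adh.2c2 only 15.4%. With 2 libraries per group, single ILC2/b6 calls of under 0.3 log2 units are the least firm, and peaks near the score limit may be missing from either list.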

Other observations

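Chromosome X held more of the Scid.adh.2c2 than of the ILC2/b6 Bcl11b list. It had 298 peaks (1.67%) in Scid.adh.2c2 and 236 (1.09%) in ILC2/b6, a ratio of 1.53. The same ratio of list shares was 1.133 for GATA3, 0.904 for Runx1 and 0.865 for Runx3. Of the chromosome X peaks 32.6% were shared in the Scid.adh.2c2 list and 41.1% in the ILC2/b6 list.

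The Bcl11b gene had Bcl11b peaks in both lines. There were 8 in Scid.adh.2c2 and 7 in ILC2/b6, of which 3 were shared, among them the promoter peak with scores of 45.3 and 22.5. The highest score in Scid.adh.2c2 was 114.9, in an intron at 77049 bp from the TSS, with Runx1 and Runx3 peaks of that line and no ILC2/b6 counterpart. In ILC2/b6 the highest was 43.1, at a shared site.

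Sharing a site did not mean sharing its rank. Of the 7709 shared pairs, 443 stood more than 50 percentile points higher in the Scid.adh.2c2 list and 338 more than 50 points higher in the ILC2/b6 list.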
